A study of Caenorhabditis elegans with 8 samples.

Results

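The lysozyme and saposin-like genes of Caenorhabditis elegans were taken as the 39 rows of the count table named lys, ilys or spp followed by a number, out of 46422 gene rows. They comprise 10 lys genes, 6 ilys genes and 23 spp genes, and 32 of the 39 passed the filter on low counts and were tested. The study sequenced RNA of whole L1 larvae that had hatched without food and stayed arrested for 48 hours. Strain HBR227, with the genotype aptf-1(gk794), was compared with the wild-type strain N2, with 4 libraries of each (A to D) and no treatment of either strain. Larvae of both strains came from bleached eggs kept in M9 buffer, and each library is a pool of animals of mixed tissues. The gene aptf-1 encodes an AP-2 transcription factor needed by the sleep-inducing neuron RIS, so the samples set starved larvae with the mutation against starved larvae without it.

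Lysozymes cut the peptidoglycan of bacterial walls. In C. elegans the lys genes encode a type related to lysozymes of protists, and the ilys genes encode the invertebrate type. The spp genes encode saposin-like proteins, a fold shared with amoebapores and NK-lysin, and some of them, called caenopores, open pores in bacterial membranes. In feeding worms many of these genes are active in the intestine or pharynx, where bacteria are killed and digested, and several respond to infection or to insulin signalling through DAF-16.

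The library HBR227 A stood apart from the other 7, so results are given with and without it. Across genes, its Pearson correlation with the other HBR227 libraries was 0.973 to 0.974, whereas HBR227 B, C and D correlated with each other at 0.994 to 0.995. With the N2 libraries HBR227 A correlated at 0.966 to 0.971, and HBR227 B, C and D at 0.980 to 0.988. By this measure HBR227 B, C and D were thus nearer to N2 than to HBR227 A. The libraries held 48460936 to 65016907 counts in HBR227 and 43567457 to 56437348 in N2, of which the 39 genes took 0.214% to 0.228% in HBR227 and 0.215% to 0.244% in N2. As a check of the labels, aptf-1 itself had 33, 69, 56 and 52 counts in HBR227 A to D, against 161, 196, 182 and 234 in N2 A to D. Its known target in RIS, the neuropeptide gene flp-11, had 46.4, 42.2, 44.8 and 45.9 CPM (the usual per-library scaling of counts, with TMM factors) in HBR227 A to D, against 154, 143, 152 and 163 CPM in N2 A to D, and every library matched its label at both genes. How the aptf-1 counts lie relative to the mutation was not examined here. The labels do not say which replicates came from separate cultures, so the p-values measure the spread between these libraries, which may be technical.

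In HBR227 9 members were higher and 6 were lower than in N2, and 17 of the 32 tested did not pass the test. The members that passed are 4 higher lys genes (lys-1, lys-2, lys-3 and lys-5), 1 lower lys gene (lys-10), 1 higher ilys gene (ilys-5), 4 higher spp genes (spp-2, spp-6, spp-16 and spp-22) and 5 lower spp genes (spp-1, spp-3, spp-5, spp-13 and spp-15). A gene was called where its adjusted p was under 0.05 in edgeR's quasi-likelihood test, with Benjamini-Hochberg adjustment over 17522 genes. Over all those genes 21.5% were called, 11.2% higher and 10.4% lower, beside 46.9% of the members tested. The median log2 fold change (HBR227 minus N2) was -0.01 over the members tested and 0.00 over all genes tested. By type the medians were 0.45 for lys, 0.37 for ilys and -0.21 for spp genes. Without HBR227 A they were 0.53 for lys, -0.08 for ilys and -0.41 for spp genes. The ilys medians cover unlike sets, 4 genes with all libraries and 5 without HBR227 A, when ilys-6 (-0.87) was also tested. Each of the 4 genes had a higher log2 fold change without HBR227 A than with it. Of the 15 calls, 12 were under 2-fold. With libraries scaled by total counts alone, 7 members were higher and 8 lower. Of all genes, 24.5% were then called, and their median was -0.11 over all genes tested.

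Without HBR227 A all 15 calls were made again in the same direction and 8 more were added, for 13 higher and 10 lower of 33 tested. The share called over all genes was then also larger, at 44.3% (21.0% higher and 23.3% lower). The 8 added members were ilys-2, lys-6, lys-7 and spp-23, all higher, and spp-7, spp-11, spp-12 and spp-17, all lower. In bulk RNA of whole larvae, fewer cells of a type and less RNA per cell cannot be told apart in any of these values.

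Levels per length were led by spp-14, spp-8 and spp-5. On the scale of CPM per kb of exon, spp-14 averaged 1881 ± 332 in HBR227 and 1650 ± 132 in N2 (SD, n = 4 each). The level of spp-8 was 651 ± 34 CPM per kb in HBR227 and 591 ± 53.9 in N2, and that of spp-5 was 585 ± 53.2 in HBR227 and 776 ± 57.6 in N2. These 3 genes made up 78.7% of the summed CPM per kb of the family in HBR227 and 76.9% in N2. The highest lysozyme gene was lys-8, at 85.3 CPM per kb in HBR227 and 92.9 in N2, followed by lys-1 at 66.0 in HBR227 and 44.9 in N2. The highest gene of the invertebrate type was ilys-4, at 24.2 CPM per kb in HBR227 and 26.6 in N2.

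**Figure D1:**
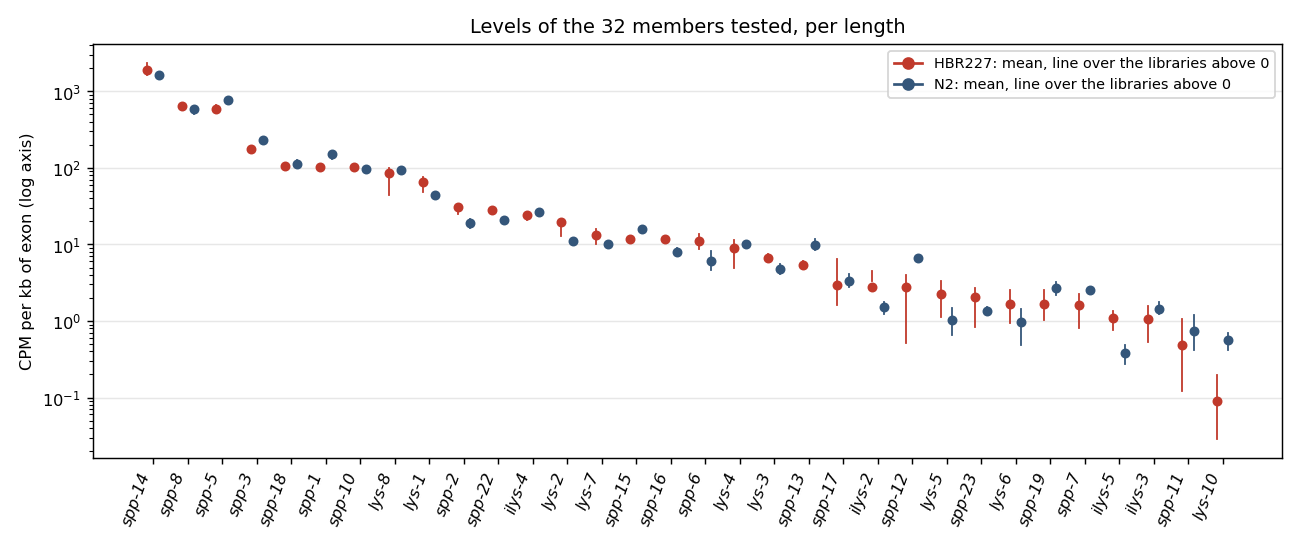
Mean TMM-scaled CPM per kb of exon (log axis) of the 32 members tested, for HBR227 and N2, with lines over the range of the libraries above 0 (n = 4 each; ilys-2 and lys-10 had 0 counts in HBR227 A). The saposin-like genes spp-14, spp-8 and spp-5 lie highest, and lys-10 is the lowest in HBR227.

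The lysozyme genes lys-1, lys-2 and lys-3, which lie side by side on chromosome V, were all higher in HBR227. The gene lys-1 (WBGene00003090, chromosome V, 10277904 to 10279056, WBcel235, protein-coding) is an intestinal lysozyme gene known to be induced by Serratia infection. It had 47.1, 67.6, 72.2 and 66.3 CPM in HBR227 A to D, against 42.1, 42.8, 44.2 and 43.1 CPM in N2 A to D. Every HBR227 library lay above every N2 library, and HBR227 A was the nearest to them. The difference for lys-1 was 0.56 ± 0.11 on the log2 scale (SE, as for every log2 fold change; adjusted p = 0.00801), and 0.68 ± 0.04 without HBR227 A.

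The neighbouring lysozyme gene lys-2 (10280307 to 10281474) had 12.1, 20.1, 20.2 and 20.2 CPM in HBR227 A to D, against 9.83, 11.3, 9.93 and 10.1 CPM in N2 A to D. HBR227 B, C and D were almost equal, while HBR227 A was closer to N2. Its log2 fold change was 0.82 ± 0.16 (SE; adjusted p = 0.00555), and 0.97 ± 0.07 without HBR227 A. The third gene of the cluster, lys-3 (10282100 to 10283544), had 7.96, 8.37, 6.68 and 6.60 CPM in HBR227 A to D, against 4.84, 4.58, 6.26 and 6.04 CPM in N2 A to D. The groups did not overlap, but HBR227 C and D were close to N2 C and D. For lys-3 the log2 fold change was 0.45 ± 0.14 (adjusted p = 0.0426). Its call ended with total counts alone as the scale, with the replicate letter as a block (adjusted p = 0.112), and when any 1 library other than N2 C or HBR227 A was left out (adjusted p 0.0545 to 0.109).

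In a second cluster, lys-4, lys-5 and lys-6 on chromosome IV (11621429 to 11627947), 1 of the 3 genes was called. The gene lys-5 had 0.786, 1.72, 1.48 and 2.31 CPM in HBR227 A to D, against 0.468, 0.465, 0.897 and 1.03 CPM in N2 A to D. HBR227 A lay between the N2 libraries, so the groups overlapped. On the log2 scale lys-5 was higher by 1.14 ± 0.36 (adjusted p = 0.0475). The call of lys-5 ended with upper quartile or total count scaling, with limma voom, with a filter of 1 CPM in 4 libraries, and without any 1 library other than N2 D or HBR227 A (adjusted p 0.0725 to 0.135). The gene next to it, lys-6, had a log2 fold change of 0.81 ± 0.37 that did not pass (adjusted p = 0.146), and passed without HBR227 A at 0.99 ± 0.30 (adjusted p = 0.0128). At lys-4 the level was 7.14 ± 2.25 CPM in HBR227 and 7.92 ± 0.734 CPM in N2 (SD, n = 4 each; adjusted p = 0.680). There too HBR227 A was low, at 3.88 CPM against 7.70 to 9.07 CPM in HBR227 B, C and D.

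The defence lysozyme gene lys-7, a known DAF-16 target, was near the threshold. It had 9.06, 12.4, 14.5 and 12.4 CPM in HBR227 A to D, against 9.36, 8.27, 8.61 and 10 CPM in N2 A to D. Only HBR227 A fell among the N2 libraries. For lys-7 the log2 fold change was 0.42 ± 0.14 with all 8 libraries (adjusted p = 0.0561) and 0.53 ± 0.09 without HBR227 A (adjusted p = 8.9e-05). With all 8 libraries lys-7 was called by DESeq2 (adjusted p = 0.0226) and by edgeR with no filter on low counts (adjusted p = 0.0431). The gene lys-8, whose expression in C. elegans is promoted by DBL-1 signalling, had 43.6, 95.5, 96.9 and 95.1 CPM in HBR227 A to D, against 97.0, 84.9, 89.7 and 88.9 CPM in N2 A to D. HBR227 A held less than any other library, and the other 3 lay near the upper end of the N2 range. Its log2 fold change was -0.12 ± 0.23 with all libraries (adjusted p = 0.756) and 0.09 ± 0.04 without HBR227 A (adjusted p = 0.104).

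The lowest lysozyme gene tested, lys-10 (chromosome IV, 8332826 to 8333518), was lower in HBR227. It had 0, 6, 7 and 1 counts in HBR227 A to D, against 17, 24, 14 and 26 in N2 A to D. All HBR227 libraries lay below all N2 libraries. Its log2 fold change was -2.52 ± 0.56 (SE; adjusted p = 0.0108), and -2.17 ± 0.48 without HBR227 A, which at 0 counts could hold up to 0.0655 CPM (3 counts, counting error only). The gene passed the filter on low counts through its N2 libraries alone, so a difference was built into its being tested. The last member of the type, lys-9, had at most 4 counts in any library and was not tested.

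Among the invertebrate-type genes, ilys-5 on the X chromosome (6533490 to 6536840) was higher in HBR227. It had 0.982, 1.73, 1.35 and 1.53 CPM in HBR227 A to D, against 0.357, 0.448, 0.632 and 0.540 CPM in N2 A to D. The groups did not overlap at these low levels. With 1.5 ± 0.24 on the log2 scale (adjusted p = 0.00232), ilys-5 had the largest rise among the 9 members called higher with all 8 libraries.

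The 3 genes ilys-3, ilys-2 and ilys-1 form a cluster on chromosome IV (2464456 to 2471449), and none of its tested genes was called with all libraries. The gene ilys-2 had 0, 140, 86 and 82 counts in HBR227 A to D, against 35, 52, 30 and 41 in N2 A to D. HBR227 B, C and D were above every N2 library, and HBR227 A, with no count, was below. Its log2 fold change was 0.88 ± 0.74 with all libraries (adjusted p = 0.445) and 1.28 ± 0.19 without HBR227 A (adjusted p = 3.6e-05). In C. elegans ilys-3 encodes a lysozyme of the pharynx and gut that takes part in breaking bacteria. Its level was 0.530 ± 0.227 CPM in HBR227 and 0.699 ± 0.123 CPM in N2 (SD, n = 4 each; adjusted p = 0.394). The most abundant gene of the type, ilys-4, had 16.7, 19.6, 20.3 and 19.9 CPM in HBR227 A to D, against 21.0, 21.7, 21.5 and 20.1 CPM in N2 A to D. Its groups overlapped through HBR227 C, and the log2 fold change of -0.14 ± 0.08 did not pass (adjusted p = 0.243).

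**Figure D2:**
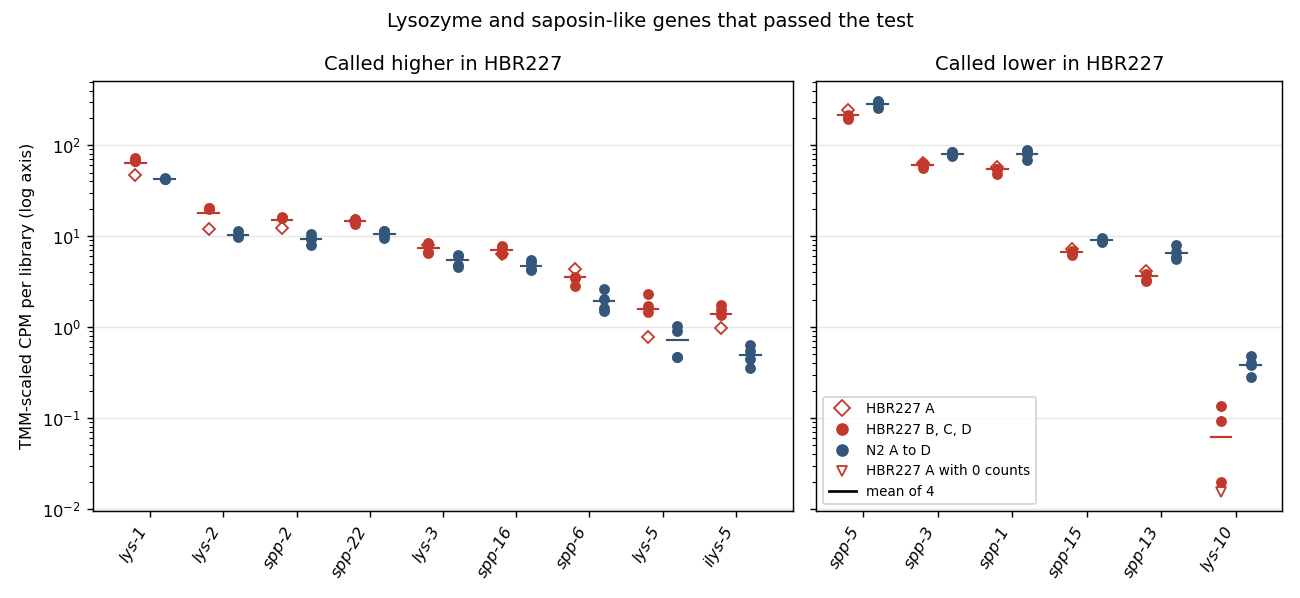
TMM-scaled CPM (log axis) of the 9 members called higher and the 6 called lower, with each library as a point, HBR227 left of N2 and the mean of 4 as a bar. HBR227 A is drawn as an open diamond, or as an open triangle near the axis for lys-10, where it had 0 counts. At lys-1, lys-2, spp-2, lys-5 and ilys-5 HBR227 A lies between N2 and the other HBR227 libraries or among the N2 libraries.

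The caenopore genes spp-5 and spp-1 were lower in HBR227. The intestinal gene spp-5 (chromosome X, 7319937 to 7320354), whose product forms pores and kills Escherichia coli, had 243, 196, 216 and 211 CPM in HBR227 A to D, against 310, 260, 283 and 296 CPM in N2 A to D. All HBR227 libraries were below all N2 libraries. For spp-5 the log2 fold change was -0.41 ± 0.08 (adjusted p = 0.00485). The antibacterial caenopore gene spp-1 (chromosome III, 10355098 to 10355668) had 57.4, 48.5, 55.5 and 55.2 CPM in HBR227 A to D, against 84.9, 69.0, 80.8 and 87.6 CPM in N2 A to D. There was no overlap, and HBR227 A was not apart from its group. On the log2 scale spp-1 changed by -0.57 ± 0.08 (SE; adjusted p = 0.00148).

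Another saposin-like gene of the X chromosome, spp-3 (7314969 to 7315353), had 63.4, 56.9, 64.2 and 60.3 CPM in HBR227 A to D, against 84.4, 76.8, 77.4 and 83.8 CPM in N2 A to D. Again the groups did not overlap, and the log2 fold change was -0.40 ± 0.06 (adjusted p = 0.00166). The gene spp-13 (chromosome X, 8417419 to 8418524) had 4.10, 3.87, 3.32 and 3.22 CPM in HBR227 A to D, against 5.93, 8.02, 5.63 and 6.73 CPM in N2 A to D. All HBR227 libraries were below all N2 libraries, and spp-13 changed by -0.86 ± 0.14 on the log2 scale (adjusted p = 0.00262).

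The fifth fall, in spp-15, was in a gene that overlaps another. It had 7.31, 6.48, 6.23 and 6.92 CPM in HBR227 A to D, against 9.16, 8.59, 8.79 and 9.54 CPM in N2 A to D, with a log2 fold change of -0.42 ± 0.09 (adjusted p = 0.00910). Exons of C48E7.6 on the opposite strand cover 42.9% of the spp-15 exon length. The log2 fold change of C48E7.6 was 0.34 ± 0.08 (adjusted p = 0.0161). Whether counting used strand is not given, so the reads of the shared stretch cannot be assigned. The same holds for smaller opposite-strand overlaps at spp-1 (T07C4.3, 3.64% of its exon length), lys-8 (C17G10.13, 3.92%) and spp-19 (twk-10, 12.1%).

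The saposin-like genes spp-2, spp-6, spp-16 and spp-22 were higher in HBR227. The gene spp-2 (chromosome X, 7315995 to 7316818) had 12.4, 15.9, 16.1 and 15.7 CPM in HBR227 A to D, against 9.36, 8.09, 9.55 and 10.5 CPM in N2 A to D. HBR227 A was the lowest of its group and still above N2. For spp-2 the log2 fold change was 0.68 ± 0.11 (adjusted p = 0.00286). Its neighbour spp-6 (7317341 to 7317712) had 4.39, 2.86, 3.59 and 3.46 CPM in HBR227 A to D, against 2.05, 1.49, 1.63 and 2.65 CPM in N2 A to D. The lowest HBR227 library was just above N2 D, and the log2 fold change was 0.87 ± 0.20 (adjusted p = 0.0138).

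The gene spp-22 (chromosome X, 7211705 to 7213956) had 14.6, 14.6, 13.5 and 15.4 CPM in HBR227 A to D, against 10.4, 11.3, 9.65 and 11.3 CPM in N2 A to D. The groups did not overlap, HBR227 A lay inside its own, and the log2 fold change was 0.44 ± 0.08 (adjusted p = 0.00539). For spp-16 (chromosome V, 10900531 to 10901303) the values were 6.37, 6.36, 7.44 and 7.82 CPM in HBR227 A to D, against 5.42, 4.22, 4.32 and 5.07 CPM in N2 A to D. The groups were separate, and the log2 fold change was 0.56 ± 0.12 (adjusted p = 0.0106). Exons of F32D8.7 on the opposite strand cover 28.5% of the spp-16 exon length, and F32D8.7 itself had a log2 fold change of -0.21 ± 0.25 (adjusted p = 0.596).

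Members of the same cluster did not always move the same way. Within 6 kb of the X chromosome lie, in order, spp-3, spp-2, spp-6, spp-4 and spp-5, with gaps of 641, 522, 526 and 1180 bp between them. The inner genes spp-2 and spp-6 were higher in HBR227 while the outer genes spp-3 and spp-5 were lower, and spp-4 had too few counts to test (6, 8, 7 and 10 in HBR227 A to D, against 7, 8, 4 and 11 in N2 A to D). In the lys-1, lys-2 and lys-3 cluster, with gaps of 1250 and 625 bp, all 3 were higher, although lys-1 is on the plus strand and the others on the minus strand. The adjacent genes spp-10 and spp-8 on chromosome IV, 1007 bp apart on the same strand, had log2 fold changes of 0.08 ± 0.06 and 0.14 ± 0.07 and neither passed. On chromosome I, spp-17 and spp-23 lie 1666 bp apart on the same strand. Their log2 fold changes were -0.21 ± 0.44 and 0.61 ± 0.33, and neither passed with all libraries. How reads that map to several family members were counted is not given, and the similarity of neighbouring copies was not examined here.

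**Figure D3:**
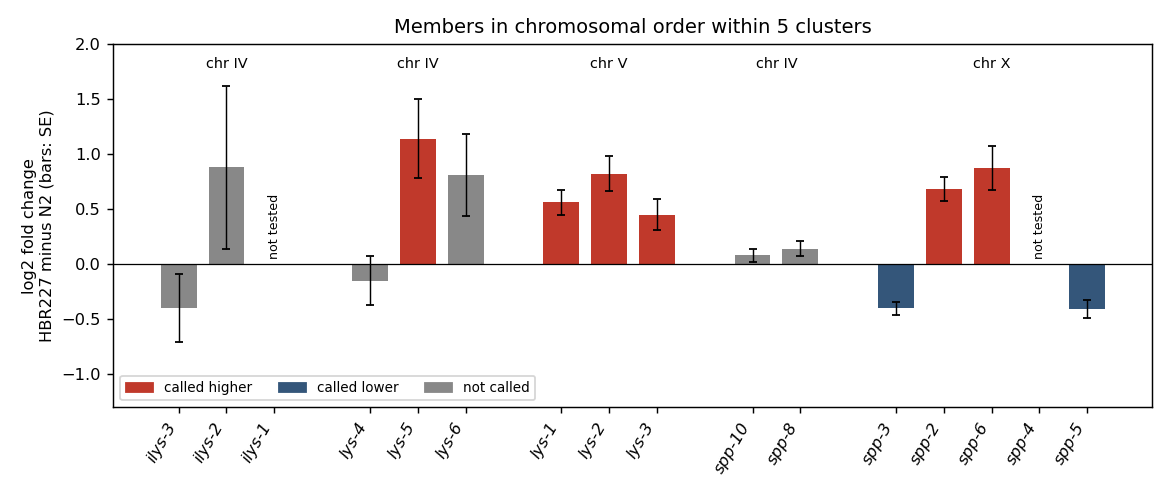
Log2 fold changes (HBR227 minus N2, bars are SE) of members in their chromosomal order within 5 clusters. In the X chromosome cluster spp-2 and spp-6 rise between the lower spp-3 and spp-5, and in the chromosome V cluster lys-1, lys-2 and lys-3 are all called higher.

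The members with the highest CPM, spp-8 and spp-14, did not pass the test. The gene spp-8 had 813, 802, 891 and 874 CPM in HBR227 A to D, against 816, 666, 773 and 813 CPM in N2 A to D. The groups overlapped, and spp-8 differed by 0.14 ± 0.07 on the log2 scale (adjusted p = 0.190). The gene spp-14 had 843, 578, 628 and 629 CPM in HBR227 A to D, against 618, 519, 595 and 617 CPM in N2 A to D. Here HBR227 A alone was high, and the log2 fold change was 0.19 ± 0.11 with it and 0.06 ± 0.06 without it (adjusted p = 0.268 and 0.410). The gene spp-10 had 148, 154, 160 and 165 CPM in HBR227 A to D, against 156, 137, 147 and 155 CPM in N2 A to D (adjusted p = 0.371). For spp-18 the values were 49.2, 46.6, 52.3 and 51.5 CPM in HBR227 A to D, against 53.4, 49.1, 51.1 and 58.6 CPM in N2 A to D (adjusted p = 0.400). These groups overlapped as well. The summed level of all 39 genes was 2327 ± 103 CPM in HBR227 and 2248 ± 166 CPM in N2 (SD, n = 4 each), and the libraries of the strains overlapped in it.

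Several low spp genes passed the test in some settings only. The gene spp-12, which in C. elegans is expressed in a pair of pharyngeal neurons and encodes a pore-forming protein, had 0.240, 1.67, 1.86 and 1.39 CPM in HBR227 A to D, against 2.72, 3.32, 3.04 and 3.39 CPM in N2 A to D. All HBR227 libraries were below all N2 libraries, with HBR227 A far below. Its log2 fold change of -1.26 ± 0.42 missed the threshold (adjusted p = 0.0639), whereas without HBR227 A it was -0.93 ± 0.14 and passed (adjusted p = 6.2e-05). The call was also made by DESeq2, by limma voom and with total counts alone (adjusted p 0.0143 to 0.0490).

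The calls of spp-7, spp-11, spp-17 and spp-23 also turned on HBR227 A. At spp-17 it held 2.38 CPM, against 0.594 to 0.756 CPM in HBR227 B, C and D and 1 to 1.51 CPM in N2. With HBR227 A left in, the log2 fold change of spp-17 was -0.21 ± 0.44 (adjusted p = 0.781) and -0.92 ± 0.22 without it (adjusted p = 0.00246). At spp-11 the change was -0.63 ± 0.55 with it (adjusted p = 0.453) and -1.3 ± 0.40 without it (adjusted p = 0.0154). At spp-23 it was 0.61 ± 0.33 with it (adjusted p = 0.224) and 0.86 ± 0.25 without it (adjusted p = 0.0107). The gene spp-7 separated fully, at 1.73 ± 0.673 CPM in HBR227 and 2.71 ± 0.152 CPM in N2 (SD, n = 4 each). Its difference was -0.63 ± 0.25 on the log2 scale with HBR227 A (adjusted p = 0.105) and -0.41 ± 0.15 without it (adjusted p = 0.0336). For spp-19 the log2 fold change of -0.69 ± 0.28 did not pass (adjusted p = 0.102), but passed with the replicate letter as a block (adjusted p = 0.0336) and without HBR227 D (-0.95, adjusted p = 0.0374). In all, 16 of the 32 members tested (50.0%) separated the 4 HBR227 from the 4 N2 libraries, 8 in each direction, beside 28.9% of all genes tested.

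**Figure D4:**
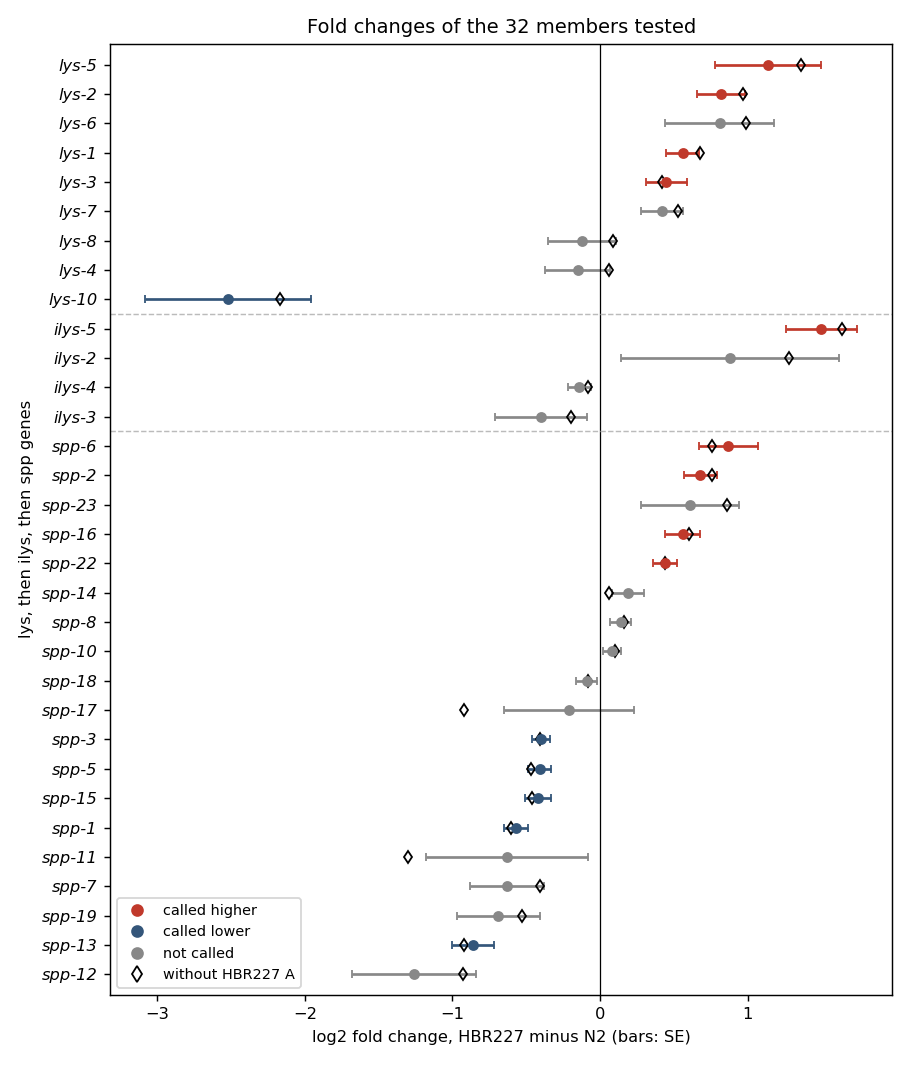
Log2 fold changes (HBR227 minus N2) with SE of the 32 members tested, ordered by size within lys, ilys and spp genes, with the value without HBR227 A as an open diamond. The 9 red points lie above 0 and the 6 blue points below it, and spp-17 and spp-11 move most to the left when HBR227 A is left out.

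The 7 members that were not tested were ilys-1, ilys-6, lys-9, spp-4, spp-9, spp-20 and spp-21. They had 0 to 13 counts in the HBR227 libraries and 0 to 19 in the N2 libraries. The highest of these counts were at ilys-6, with 2, 8, 10 and 4 in HBR227 A to D, against 12, 19, 13 and 7 in N2 A to D. A single count was found for spp-20, in N2 D. When HBR227 A was left out ilys-6 passed the filter, with a log2 fold change of -0.87 ± 0.47 (adjusted p = 0.143).

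Genes of a general list of immune regulators were partly higher in HBR227. Of 30 immune regulators, 11 rose and 19 did not pass the test (36.7% called, beside 21.5% of all genes). With total counts alone 8 rose and 1 fell, where 24.5% of all genes were called (1174 higher and 3111 lower). Without HBR227 A 19 rose and 2 fell (70% called, beside 44.3% of all genes). The FOXO factor gene daf-16, which acts on several lysozyme genes, averaged 333 ± 19.2 CPM in HBR227 and 233 ± 11.4 CPM in N2 (SD, n = 4 each; log2 fold change 0.51 ± 0.06, adjusted p = 4.0e-04). The ligand gene dbl-1, of the pathway that promotes lys-8, averaged 45.2 ± 1.22 CPM in HBR227 and 34.1 ± 1.61 CPM in N2 (SD, n = 4 each; 0.41 ± 0.06, adjusted p = 0.00124). The epidermal immune factor gene sta-2 rose by 0.71 ± 0.07 (adjusted p = 2.1e-04), and irg-7, which acts upstream of p38 signalling in the gut, by 0.44 ± 0.07 (adjusted p = 0.00198). The GATA factor gene elt-2, which drives gut transcription, had a log2 fold change of -0.07 ± 0.07 (adjusted p = 0.528).

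Other antimicrobial peptide families and infection-induced gut genes went both ways. Of 46 tested genes of the abf, cnc, fip, fipr, thn and epidermal nlp families, 1 rose and 8 fell (19.6% called, beside 21.5% of all genes). The thaumatin-like gene thn-1 averaged 0.420 ± 0.174 CPM in HBR227 and 1.77 ± 0.281 CPM in N2 (SD, n = 4 each; log2 fold change -2.06 ± 0.28, adjusted p = 0.00112). The caenacin gene cnc-2 fell by 1.56 on the log2 scale (adjusted p = 9.0e-04), and the defensin-like gene abf-2 fell by 0.92 (adjusted p = 0.00361). The rise was in nlp-33 (0.48 ± 0.10, adjusted p = 0.00693). Without HBR227 A 12 of these genes rose and 13 fell (54.3% called, beside 44.3% of all genes). For the infection-induced gut genes, 22 names are rows of the table and 3 further names of the list are not. Of the 22, 3 rose and 4 fell (31.8% called, beside 21.5% of all genes). Without HBR227 A 8 of the 22 rose and 5 fell (59.1% called, beside 44.3% of all genes). Among these clec-61, a C-type lectin gene, rose by 1.18 ± 0.12 (adjusted p = 2.6e-04). In the same list F55G11.8 changed by -1.31 ± 0.18 (adjusted p = 0.00104), dod-22 by -0.90 ± 0.15 (adjusted p = 0.00275) and clec-85, another C-type lectin gene, by -0.77 ± 0.14 (adjusted p = 0.00394).

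Markers of the organs in which these genes are known to act were measured beside them. All 17 intestine markers had counts, and 4 rose and 1 fell (29.4% called, beside 21.5% of all genes). With total counts alone 3 rose and 2 fell, where 24.5% of all genes were called (1174 higher and 3111 lower). Without HBR227 A 11 rose and 2 fell (76.5% called, beside 44.3% of all genes). Their summed level was 4490 to 5128 CPM in HBR227 and 4980 to 5910 CPM in N2, whereas without asp-1, the gene with the most of it, the sum was 2249 to 2876 CPM in HBR227 and 2140 to 2488 CPM in N2. The fall was in the aspartic protease gene asp-1, at 2201 ± 91.2 CPM in HBR227 and 3207 ± 256 CPM in N2 (SD, n = 4 each; adjusted p = 5.4e-04). The rises included the gut esterase gene ges-1 (0.44 ± 0.10, adjusted p = 0.0151), gtl-1 (0.43 ± 0.09, adjusted p = 0.00727) and ifo-1 (0.53 ± 0.13, adjusted p = 0.0188). Of 15 pharynx markers, all of which had counts, edgeR called 0 (beside 21.5% of all genes), with 2 at an unadjusted p under 0.05. Their log2 fold changes were below 0 at 12 and above 0 at 3, beside 8833 below and 8689 above over all genes tested. Without HBR227 A the markers were below 0 at 9 and above 0 at 6, beside 9234 below and 8616 above over all genes tested. DESeq2 called 1 of the 15 markers (beside 23.8% of all genes) and limma voom 0 (beside 22.2%). With total counts alone edgeR called 1 (beside 24.5%). Without HBR227 A edgeR called 6, of which 2 rose and 4 fell (40.0% called, beside 44.3% of all genes). Their summed level was 4691 CPM in HBR227 A, 7330 to 7628 CPM in HBR227 B, C and D, and 6710 to 7118 CPM in N2. HBR227 A was also the lowest HBR227 library in the intestine sum without asp-1, at 2249 CPM against 2660 to 2876 CPM in HBR227 B, C and D. A few genes made up most of both sums in HBR227 A: ifb-2 held 1312 CPM of the intestine sum without asp-1. In the pharynx sum myo-1 held 1808 CPM and myo-2 1441 CPM. Not every marker was low there, as elt-7 had 11.6 CPM in HBR227 A against 7.92 to 8.89 CPM in HBR227 B, C and D. Among the members, lys-8 and spp-12 were low in HBR227 A, while spp-1, spp-5 and spp-14 were high in it. The part of either organ in the levels of the members was not tested.

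Across the 32 members tested, HBR227 A lay below HBR227 B, C and D at 18, above them at 8 and within them at 6. The same count over all genes tested was not made, so these places are not shown to be particular to the members. The lys genes were below at 8 of 9, the exception being lys-3. The caenopore genes spp-1 and spp-5 were above, at 57.4 CPM for spp-1 and 243 CPM for spp-5 in HBR227 A, and both still lay below every N2 library.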

How the data were processed

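Raw counts per gene, not scaled, were deposited by the authors for 8 libraries in 1 table. The submitters' processing notes list Bowtie 0.12.2 and the builds WBcel235 and mm8, with no role for any of them. No source used here gives the counting program, the annotation or whether strand was used. In 11 of 46433 rows the name had become a date, and these rows (0.0333% of counts) were left out.

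Libraries were scaled by TMM and genes kept by filterByExpr (minimum count 10). The strains were compared in R 4.3.3 by the quasi-likelihood F test of edgeR 4.0.16, robust, with no covariate. P-values were adjusted over 17522 genes, and the SE of a log2 fold change is its size over the square root of F. All CPM carry the TMM factors. Coordinates (1-based), exon lengths and overlaps come from Ensembl release 115 on WBcel235, where all 39 names matched. Release 115 also names 8 other spp genes that are not row names here and were not used. Promoter motifs and sequences were not analysed here.

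Alternatives were other scalings, limma voom 3.58.1, DESeq2 1.42.0, other filters, a stricter threshold, a replicate block and each library left out. Every tested member could be named. Values per library are given for all called members and the 6 uncalled ones with the highest CPM, and up to 4 called genes of the smallest p per context list. Values per library of lys-7, ilys-2 and spp-12, counts of spp-4 and ilys-6, the gene elt-2 and the intestine sum without asp-1 were added after their values were seen. The members and lists were chosen with earlier results of these data known. Figures were drawn with matplotlib 3.10.9.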

Additional observations from a re-analysis of the deposited data

Results flagged for a closer look

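In 5 of the 68 groups of 4 libraries examined (32 members, aptf-1 and flp-11 in each strain), 1 library stood far from the other 3, and in all 5 it was HBR227 A. Chance flags about 1 in 20 such groups, and the groups share libraries. HBR227 A held 12.1 CPM of lys-2, against 20.1 to 20.2 CPM in HBR227 B, C and D. It held 43.6 CPM of lys-8, against 95.1 to 96.9 CPM in the other 3, and 12.4 CPM of spp-2, against 15.7 to 16.1 CPM. At spp-17 it was high, with 2.38 CPM against 0.594 to 0.756 CPM. For aptf-1 it held 0.720 CPM, against 1.03 to 1.09 CPM in the other HBR227 libraries and 3.26 to 4.36 CPM in N2.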

How the results depend on the processing

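No called member changed direction under any alternative run. When each library was left out in turn, 7 to 13 members were called higher and 6 to 10 lower. The upper ends came from leaving out HBR227 A, where 44.3% of all genes were called, against 13.6% to 18.0% in the other such runs. At an adjusted p under 0.01, 5 members were higher and 5 lower, and 9.83% of all genes were called. With a CPM of at least 1 in 4 libraries ilys-5 and lys-10 were no longer tested and lys-5 was not called. Of 26 members tested, 7 were then higher and 5 lower, beside 25.9% of all genes called. With the replicate block, 8 were higher and 7 lower (17.5% of all genes called): lys-3 was lost and spp-19 gained. The letters are not shown to pair the libraries, since same-letter correlations of deviations were -0.02 to 0.14 and 1 of the 4 HBR227 libraries correlated best with its own letter. Uncalled members changed sign in 5 cases: spp-10 with total counts alone (-0.03), ilys-2 with limma voom (-0.40), lys-4 and lys-8 without HBR227 A, and spp-17 without HBR227 B. With 1 library left out in turn, the log2 fold change was -0.28 to 0.06 for lys-4, -0.21 to 0.09 for lys-8 and -0.92 to 0.01 for spp-17. The cause of these changes was not tested. The filter, at about 0.192 CPM, set which members were tested, and 7 of 39 were not.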
